A study of Sus scrofa with 12 samples.

Results

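The genes described here are the antioxidant and glutathione enzymes of the newborn pig uterus, with their main regulators, as read by RNA sequencing. They were chosen by name: rows of the deposited expression table whose gene symbol belongs to the SOD, GPX, PRDX, TXN or GST families, or is CAT, NQO1, GCLC, GSR, NFE2L2 or KEAP1, with HMOX1, HMOX2, GCLM, GSS and SRXN1 also searched for. The rule found 28 of the 20390 rows, and 26 of the 28 were above the table's lowest value of 1 in at least 4 of the 12 libraries and were tested. A further 20 rows of the same families, which the table lists under placeholder names or an older symbol, were identified by gene number, and 19 of them were tested. These 20 rows are given separately and never added to the 26.

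The 12 libraries came from crossbred gilts of Landrace, Yorkshire, Duroc and Hampshire origin, each library from the uterus of 1 animal. At birth (PND0) 4 uteri were taken within 1 h, before any nursing. On postnatal day 2 uteri were taken at 50 h of age from 4 gilts that had nursed freely for 48 h (PND2N) and from 4 that had received a commercial milk replacer for 48 h (PND2R). The day 2 groups thus differ from PND0 in age, in time spent breathing air and in feeding at once, and these cannot be told apart. No litter, date or batch was given, and all groups are of the same crossbred origin. The p-values rest on the spread between animals within groups of 4. That spread was estimated over all 3 groups in 1 fit and adjusted with information from all genes, so each comparison also depends on the third group.

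Cells make superoxide and hydrogen peroxide whenever they use oxygen. Superoxide dismutases turn superoxide into hydrogen peroxide, which is then removed by catalase, by glutathione peroxidases that spend glutathione, and by peroxiredoxins that are recharged by thioredoxin. Oxidized glutathione is restored by glutathione reductase and oxidized thioredoxin by thioredoxin reductases, both at the cost of NADPH. Glutathione S-transferases attach glutathione to reactive molecules, and the transcription factor NRF2, encoded by NFE2L2 and held in check by KEAP1, controls many of these genes.

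The table's values are on a linear normalized scale with a floor of 1 and are not divided by gene length, so levels are compared between libraries and not between genes. Column totals ran from 26534074 to 29544130, and 17.8% to 22.1% of genes were at the floor. The read depth is unknown. In the uterine identity list, HOXA10, a developmental gene of the uterus, read 3468 to 8409 in the 12 libraries, and 13 of 15 listed genes were in the table with none at the floor throughout. Some libraries stood apart in tissue markers. DES, an intermediate filament gene of smooth muscle, was 40049 in PND2N 1, 33144 in PND2R 2 and 29022 in PND2R 3, against 7460.1 to 23439.7 in the other 9. These 3 libraries also had the highest column totals (29544130, 28354031 and 29001990, against at most 27899130 in the others). Their shares of genes at the floor were the highest too (22.1%, 21.9% and 21.3%, against at most 20.4%). Their summed stroma marker list (7 of 8 genes in the table) was the lowest, at 272512, 299014 and 233537, against 331720 to 512902 in the others. They thus differed in more than smooth muscle markers, and the reason was not tested. Among newborn libraries KRT8, an epithelial keratin, read 49821 in PND0 1 and 51645 in PND0 2, against 14444 in PND0 3 and 11099.6 in PND0 4. The day 2 KRT8 values lay between these pairs, from 24683 in PND2N 2 to 40042 in PND2R 3. KRT18, another epithelial keratin, was 7511, 7886, 1902 and 1753 in PND0 1 to 4 and 4712 to 12547 on day 2. EPCAM, a further epithelial marker, was 322.8, 619.1, 59.95 and 191.0 in PND0 1 to 4 and 79.68 to 171.5 on day 2. KRT18 and EPCAM thus did not share the order of KRT8. In such bulk tissue, fewer cells of a type and less RNA per cell cannot be told apart.

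Between birth and day 2, 8 of the 26 genes passed in at least 1 of the 3 comparisons, 7 of them upward. The share of all genes for that joint count was not computed, so shares are given for each comparison. In the replacer-fed gilts, thioredoxin (TXN), glutathione reductase (GSR), the lipid peroxidase GPX4, the transferase GSTA2 and the splicing protein TXNL4A rose, and the thioredoxin inhibitor TXNIP fell. That is 5 of 26 rising against 7.70% of all 16862 genes tested, and 1 of 26 falling against 7.31% of all. In the nursed gilts 0 of 26 passed by limma, against 3.32% of all genes (1.91% rose and 1.41% fell), and 11 of 26 had an unadjusted p under 0.05. With both day 2 groups pooled, 7 of 26 rose and 0 fell, where 9.57% of all genes rose: TXN, GSR, GPX4, GSTA2, TXNL4A, the superoxide dismutase SOD1 and the NRF2 inhibitor KEAP1. The 3 comparisons share the PND0 libraries, so they do not support each other independently. Each change here is a difference of mean log2(value + 1), and adjusted p refers to limma with Benjamini-Hochberg adjustment over all 16862 genes, with 0.05 as the threshold.

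Of the other tested genes most had values above 0 without passing. The median change over the 26 was 0.42 in nursed gilts (21 above 0), 0.36 in replacer-fed gilts (18 above 0) and 0.35 for both day 2 groups together (21 above 0), while the medians over all genes tested were -0.04, -0.06 and -0.05. An unadjusted p under 0.05 was found for 11 of 26 (42.3%) in nursed gilts against 23.9% of all genes, for 9 of 26 (34.6%) in replacer-fed gilts against 37.0%, and for 11 of 26 (42.3%) over both groups against 37.8%. In nursed gilts 2 of 26 genes (TXN and KEAP1) had all 4 values above all newborn values, against 8.14% of all genes, and 0 had all below, against 7.88%. In replacer-fed gilts 7 of 26 lay wholly above birth, against 12.7%, and 2 (SOD2 and TXNIP) wholly below, against 15.6%.

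Each library's median deviation from the 12-library mean over these 26 genes ran from -0.58 to -0.05 at birth, from -0.04 to 0.37 in nursed gilts and from -0.04 to 0.25 in replacer-fed gilts. The lowest of these was PND0 4 and the highest PND2N 1, and the medians of all genes stayed between -0.05 and 0.05.

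**Figure D1:**
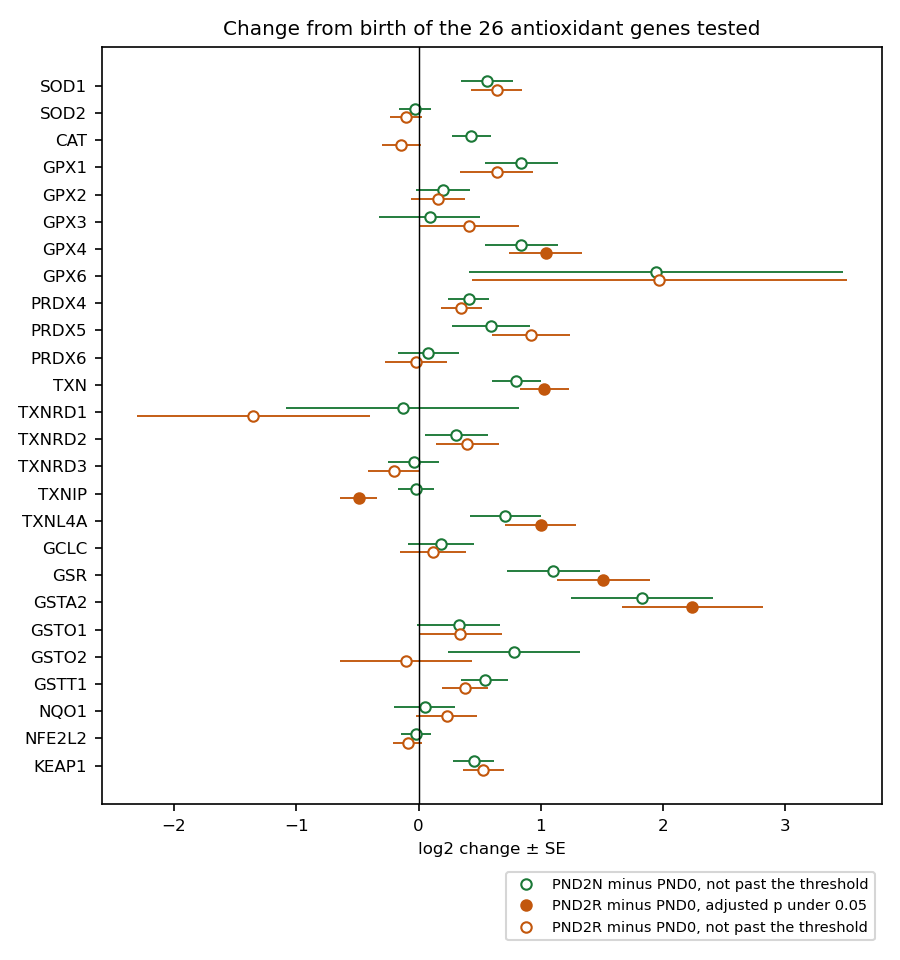
Change from birth of the 26 tested genes by role, as the log2 difference of group means with its standard error on the horizontal axis (nursed gilts in green, replacer-fed gilts in orange, 4 libraries a group). Filled points passed an adjusted p of 0.05: 6 in replacer-fed gilts, of which only TXNIP lies below 0, and 0 in nursed gilts.

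Superoxide dismutases differed among themselves. SOD1 (chromosome 13, 200218659 to 200227368), the copper-zinc enzyme of the cytosol, was 4475, 5294, 4089.6 and 3038 in the PND0 libraries 1 to 4, 8004, 4957, 5430.0 and 6444 in PND2N and 5361, 7159, 8253 and 5500.0 in PND2R. All 4 replacer-fed values lay above all 4 at birth, while PND2N 2 lay below the highest newborn value. SOD1 rose by 0.60 ± 0.18 (SE) over both day 2 groups (adjusted p = 0.043), from 4224 ± 937 (SD, n = 4) to 6209 ± 1348 in nursed and 6568 ± 1389 in replacer-fed gilts. The separate changes of 0.56 ± 0.21 and 0.64 ± 0.21 had adjusted p = 0.143 and 0.0589. The pooled call did not hold without PND0 1, PND0 3, PND0 4, PND2N 1, PND2N 4, PND2R 2 or PND2R 3 (change 0.45 to 0.64, adjusted p 0.0611 to 0.141).

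SOD2 (chromosome 1, 8530025 to 8540241), the manganese enzyme of mitochondria, gave 2719, 2636, 2815 and 2656 at birth, 2235, 2896, 3151 and 2393 in nursed and 2484, 2541, 2622 and 2477 in replacer-fed gilts. The 4 replacer-fed values all lay below the 4 newborn values, but by a small margin, and the nursed values spread to both sides. Its change was -0.03 ± 0.13 in nursed gilts (adjusted p = 0.889) and -0.10 ± 0.13 in replacer-fed gilts (adjusted p = 0.605). The secreted enzyme SOD3, listed under a placeholder name, changed by 0.20 ± 0.16 over both groups (adjusted p = 0.358).

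Catalase, the peroxisomal enzyme that splits hydrogen peroxide into water and oxygen, was the gene of this group whose feeding groups lay furthest apart by p. CAT (chromosome 2, 28990342 to 29013314) was 3488, 4307, 4248 and 3539.6 at birth, 3889, 5959, 6034 and 5270.3 in nursed and 3884, 3616, 2929 and 3723 in replacer-fed gilts. Every nursed value was above every replacer-fed value, though the lowest nursed library, PND2N 1, exceeded the highest replacer-fed library by little. The difference between nursed and replacer-fed gilts was 0.57 ± 0.16 with an unadjusted p of 0.00472 and an adjusted p of 1, so it did not pass over all genes. Against birth, CAT changed by 0.43 ± 0.16 in nursed gilts (adjusted p = 0.147) and by -0.14 ± 0.16 in replacer-fed gilts (adjusted p = 0.548). The nursed change passed only with library quality weights (adjusted p = 0.047).

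Glutathione peroxidases use glutathione to reduce peroxides. GPX4 (chromosome 2, 54340323 to 54342686), the selenoenzyme that reduces lipid hydroperoxides within membranes, was 3903, 4146, 2812 and 2427 at birth, 9430.0, 4493, 4103 and 6548 in nursed and 4631, 8103, 9585 and 5443 in replacer-fed gilts. The replacer-fed values all lay above the newborn values, and the nursed values overlapped them through PND2N 3. GPX4 rose 2.05-fold in replacer-fed gilts (1.04 ± 0.30, adjusted p = 0.0413) and by 0.94 ± 0.26 over both groups (adjusted p = 0.0321). In nursed gilts the change was 0.84 ± 0.30 (adjusted p = 0.129). The replacer call did not hold without PND0 1, PND0 3, PND0 4, PND2N 4, PND2R 2, PND2R 3 or PND2R 4 (change 0.86 to 1.13, adjusted p 0.0509 to 0.127), nor the pooled call without PND0 3, PND0 4, PND2N 4, PND2R 2 or PND2R 3 (change 0.80 to 0.91, adjusted p 0.0567 to 0.108).

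GPX1 (chromosome 13, 34635701 to 34636769), the general cytosolic enzyme, gave 2695, 4078, 2780.4 and 2441 at birth, 7059.7, 3487, 4941 and 6350.0 in nursed and 3461, 8233, 4129 and 3723 in replacer-fed gilts. PND2R 2 stood far above the other replacer-fed libraries, and both day 2 groups overlapped PND0. Its changes were 0.84 ± 0.30 (adjusted p = 0.122), 0.64 ± 0.30 (adjusted p = 0.139) and, for both groups, 0.74 ± 0.26 (adjusted p = 0.0631). None of the 3 passed.

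GPX2 (chromosome 7, 94288922 to 94292911), known from epithelia of the gut, ranged over 2827 to 3635 at birth, 2552 to 4996 in nursed and 2857 to 4827 in replacer-fed gilts, and changed by 0.18 ± 0.19 over both groups (adjusted p = 0.506). GPX3 (chromosome 16, 77386255 to 77394862), the secreted enzyme of plasma, ranged over 68.5 to 227, 95.1 to 226 and 134 to 256 in the same order, with a change of 0.25 ± 0.35 (adjusted p = 0.619). Neither gene separated the groups. GPX6, known from the olfactory epithelium, was at most 28.8 at birth but reached 270.1 in PND2N 2 and 324.4 in PND2R 3, while the other 6 day 2 libraries lay between 1.91 and 19.5. GPX5, known from the epididymis, did not exceed 4.40 in any library and was not tested. GPX8, an enzyme of the endoplasmic reticulum listed under a placeholder name, changed by 0.13 ± 0.20 (adjusted p = 0.639).

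**Figure D2:**
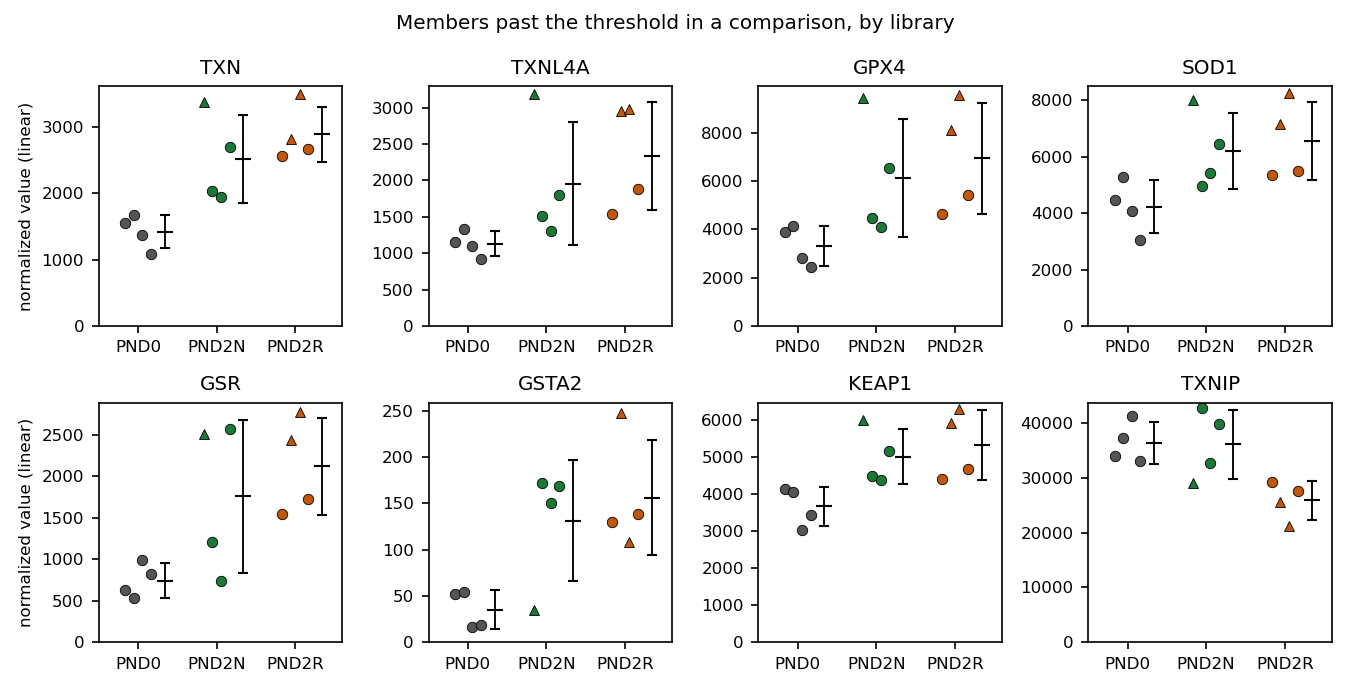
Normalized values (linear scale from 0, vertical axis) of the 8 genes past the threshold in at least 1 comparison, by group on the horizontal axis. Each point is 1 library, triangles mark PND2N 1, PND2R 2 and PND2R 3, and bars give the mean ± SD of 4. TXN and KEAP1 show day 2 values all above PND0, and TXNIP shows the replacer-fed values below PND0.

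Thioredoxin had the smallest adjusted p of the 26 genes. TXN (chromosome 1, 262775261 to 262775995), the small disulfide-reducing protein that recharges peroxiredoxins, was 1548, 1679, 1377 and 1089 at birth, 3378, 2041, 1951 and 2695 in nursed and 2567, 2825, 3498 and 2664 in replacer-fed gilts. All 8 day 2 libraries exceeded all 4 newborn libraries, a separation seen for 2 of the 26 genes (TXN and KEAP1) and, in the upward direction, for 6.67% of all genes. No gene of the 26 had all 8 below birth, where 6.62% of all genes did. TXN rose 2.04-fold in replacer-fed gilts (1.03 ± 0.20, adjusted p = 0.0126) and 1.89-fold over both groups (0.92 ± 0.18, adjusted p = 0.00871). In nursed gilts the change of 0.80 ± 0.20 just missed the threshold (adjusted p = 0.052). Both calls held in each of the 12 fits that left out 1 library, and neither held without PND0 3 and PND0 4 together (pooled change 0.72 (adjusted p = 0.0636), replacer-fed change 0.83 (adjusted p = 0.0585)). The mean went from 1423 ± 255 (SD, n = 4) at birth to 2516 ± 664 in nursed and 2888 ± 420.1 in replacer-fed gilts. A thioredoxin-like row 5156 bases from TXN changed by 0.33 ± 0.17 over both groups (adjusted p = 0.177). How reads were divided between the TXN row and this neighbour is not known.

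TXNIP (chromosome 4, 104826162 to 104829333), which binds and inhibits thioredoxin and also restrains glucose uptake, was the gene of the group that fell. Its values were 33894, 37116, 41296 and 32976 at birth, 29053, 42591, 32653 and 39842 in nursed and 29216, 25487, 21101 and 27640.0 in replacer-fed gilts. The replacer-fed values all lay below the newborn values, and the nursed values covered the newborn range. TXNIP fell in replacer-fed gilts (log2 change -0.49 ± 0.15, adjusted p = 0.0495), just under the threshold, and changed by -0.02 ± 0.15 in nursed gilts (adjusted p = 0.942). The call did not hold without PND0 1, PND0 2, PND0 3, PND0 4, PND2N 2, PND2N 3, PND2N 4, PND2R 2, PND2R 3 or PND2R 4 (change -0.54 to -0.40, adjusted p 0.0523 to 0.15). It was also lost in 8 of 11 other alternatives, among them TMM scaling (adjusted p = 0.0546), quantile normalization (0.0572), no filter (0.0578), library quality weights (0.0607), plain empirical Bayes (0.0775) and, at the threshold itself, an added value of 0.1. Nursed minus replacer-fed was 0.47 ± 0.15 with an unadjusted p of 0.00962 and an adjusted p of 1.

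The thioredoxin reductases, which restore thioredoxin with NADPH, did not pass in any comparison. TXNRD1 (chromosome 5, 82738116 to 82789766), the cytosolic form, was low: 16.1, 12.2, 20.8 and 26.6 at birth, 2.42, 37.7, 36.5 and 18.2 in nursed and 23.7, 1.77, 1 and 22.7 in replacer-fed gilts. The 3 lowest values were those of the 3 libraries of high DES. The mitochondrial TXNRD2 changed by 0.35 ± 0.22 over both groups (adjusted p = 0.255) and TXNRD3 by -0.12 ± 0.18 (adjusted p = 0.646). TXN2, mitochondrial thioredoxin under a placeholder name, changed by 0.54 ± 0.24 (adjusted p = 0.118).

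Some further proteins with a thioredoxin fold rose. TXNL4A (chromosome 1, 290771561 to 290787967) is a component of the spliceosome and carries the fold without being an antioxidant enzyme. It was 1158, 1337, 1101 and 924 at birth, 3185, 1516, 1310.1 and 1806 in nursed and 1535, 2956, 2988 and 1883 in replacer-fed gilts. The replacer-fed values all lay above birth, and among nursed libraries PND2N 3 lay within the newborn range. TXNL4A rose by 1.00 ± 0.29 in replacer-fed gilts (adjusted p = 0.0397) and by 0.86 ± 0.25 over both (adjusted p = 0.0375). The replacer call did not hold without PND0 1, PND0 3, PND0 4, PND2N 4, PND2R 2, PND2R 3 or PND2R 4 (change 0.87 to 1.09, adjusted p 0.051 to 0.122), nor the pooled call without PND0 1, PND0 3, PND0 4, PND2N 4, PND2R 2 or PND2R 3 (change 0.77 to 0.87, adjusted p 0.0653 to 0.114).

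Among the placeholder rows, TXNDC17, a cytosolic thioredoxin-like protein, was 1512, 1645, 1021 and 726 at birth, 3575, 1939, 2053 and 2652 in nursed and 2312, 3259.9, 3954 and 2533 in replacer-fed gilts. All 8 day 2 libraries exceeded the 4 newborn ones. It rose by 1.21 ± 0.25 over both groups (adjusted p = 0.0111), a call kept in all 12 fits without 1 library but lost without PND0 3 and PND0 4 together, where the change was 0.78 (adjusted p = 0.0894). In replacer-fed gilts it rose by 1.34 ± 0.29 (adjusted p = 0.0163), but not without PND2R 2 or PND2R 3 (change 1.20 to 1.29, adjusted p 0.054 to 0.0573), and without the 3 libraries of high DES the change was 1.05 (adjusted p = 0.105). TXNDC9 rose by 0.56 ± 0.14 over both groups (adjusted p = 0.0198), but not without PND0 3 or PND0 4 (change 0.47 to 0.51, adjusted p 0.0545 to 0.0672). TXNDC12, of the endoplasmic reticulum, rose by 0.48 ± 0.13 (adjusted p = 0.0286), but not without PND0 1, PND0 3, PND0 4, PND2N 4, PND2R 2 or PND2R 3 (change 0.41 to 0.51, adjusted p 0.0512 to 0.0932). TXNDC3, known from sperm and cilia, stayed near the floor and was not tested. TXNDC5, TXNDC15 and TXNL1 changed by 0.21 ± 0.14, 0.22 ± 0.12 and 0.10 ± 0.21 over both groups, with adjusted p = 0.3, 0.183 and 0.752.

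Peroxiredoxins reduce hydrogen peroxide with the help of thioredoxin. Of the 3 listed by symbol, PRDX4 of the endoplasmic reticulum (chromosome X, 20552559 to 20571942) was 3726, 4527, 4017 and 3020.2 at birth, 6362, 4269.9, 4802 and 4868 in nursed and 4123, 5383, 5648 and 4279 in replacer-fed gilts, with overlap throughout and a change of 0.38 ± 0.15 over both groups (adjusted p = 0.0923). PRDX5 (chromosome 2, 6861460 to 6862241), found in mitochondria and peroxisomes, was 2148, 2096, 1161 and 959.8, then 3369, 1811, 1710.5 and 2460.0 and 2061, 3081, 4136 and 2452. Its newborn values split, with PND0 3 and PND0 4 low, and its change was 0.92 ± 0.32 in replacer-fed gilts (adjusted p = 0.0669) and 0.75 ± 0.28 over both (adjusted p = 0.0741). PRDX6 (chromosome 9, 125570508 to 125581778), which also has phospholipase activity, was 2137, 2688, 1406 and 1183 at birth with the same split, 1474, 2001, 2244 and 1811 in nursed and 2069.6, 1608, 1488 and 1842 in replacer-fed gilts, and changed by 0.03 ± 0.21 over both groups (adjusted p = 0.924). None of the 3 passed.

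The other 3 peroxiredoxins stood under placeholder names. PRDX1, an abundant cytosolic form, was 4506, 5136, 4894 and 3032 at birth, 11458, 5392, 6414 and 6872 in nursed and 6666, 9554, 10795 and 7152 in replacer-fed gilts, and its day 2 values all lay above birth. It rose by 0.85 ± 0.22 over both groups (adjusted p = 0.0238), but not without PND0 4 (change 0.68, adjusted p 0.0844), and by 0.96 ± 0.25 in replacer-fed gilts (adjusted p = 0.0289), but not without PND0 1, PND0 4, PND2R 2 or PND2R 3 (change 0.79 to 0.98, adjusted p 0.052 to 0.0956). PRDX2, the cytosolic form known from red cells, was 11580.0, 12568, 6946 and 6746 at birth, 19617, 11484, 10919 and 15500.2 in nursed and 13441, 16325, 18556 and 13846 in replacer-fed gilts. Nursed values overlapped birth, and PRDX2 rose by 0.69 ± 0.21 over both groups (adjusted p = 0.0444), but not without PND0 3, PND0 4, PND2N 1, PND2N 4, PND2R 2, PND2R 3 or PND2R 4 (change 0.55 to 0.72, adjusted p 0.0539 to 0.144). The summed level of the erythroid marker list (7 of 10 genes in the table, 0 of 7 called) was 1081 to 2676 at birth, 2184 to 4044 in nursed and 706 to 2957 in replacer-fed gilts, and its part in PRDX2 was not tested. Mitochondrial PRDX3 changed by 0.36 ± 0.14 (adjusted p = 0.0946).

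**Figure D3:**
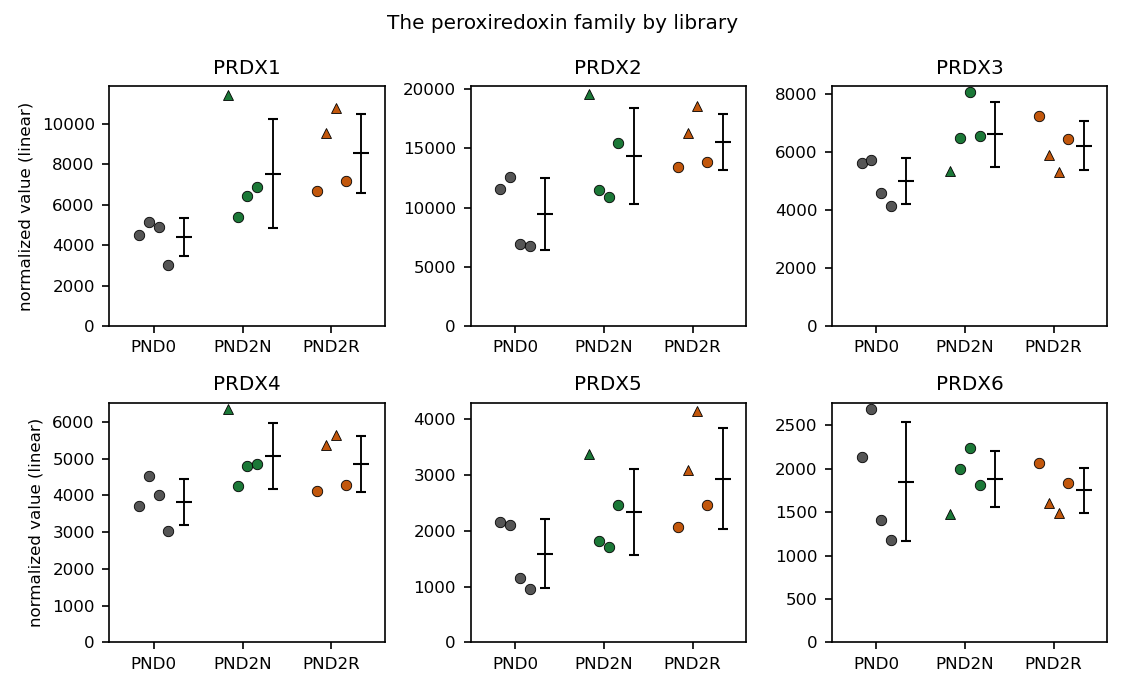
Normalized values (linear scale from 0, vertical axis) of the 6 peroxiredoxins by group on the horizontal axis, 1 point a library, with triangles for PND2N 1, PND2R 2 and PND2R 3 and bars for the mean ± SD of 4. PRDX1 shows all day 2 values above PND0, while PRDX6 shows newborn values spread from 1183 to 2688 around the day 2 values.

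Of the genes that recycle and make glutathione, the reductase passed and the synthesis subunits did not. GSR (chromosome 15, 59664225 to 59713002), the reductase that restores glutathione with NADPH, was 627, 532, 993 and 826 at birth, 2507, 1206, 742 and 2569.8 in nursed and 1541, 2442, 2775 and 1724 in replacer-fed gilts. All replacer-fed values exceeded all newborn values, and 3 of 4 nursed values did, PND2N 3 lying within the newborn range. GSR rose 2.84-fold in replacer-fed gilts (1.51 ± 0.38, adjusted p = 0.0257) and 2.47-fold over both groups (1.30 ± 0.33, adjusted p = 0.023), and changed by 1.10 ± 0.38 in nursed gilts (adjusted p = 0.118). The replacer call did not hold without PND0 1, PND0 2, PND0 4, PND2R 2 or PND2R 3 (change 1.36 to 1.57, adjusted p 0.0531 to 0.0845), nor the pooled call without PND0 1, PND0 2 or PND0 4 (change 1.16 to 1.37, adjusted p 0.0563). A second row described like GSR, on the same chromosome, changed by -0.83 ± 0.58 over both groups (adjusted p = 0.305).

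GCLC (chromosome 7, 31786473 to 31789417), the catalytic subunit of the enzyme that limits glutathione synthesis, was 1884, 1285, 775 and 849.6 at birth, 1654, 1166, 985 and 1399.5 in nursed and 1328, 994, 1314 and 1266 in replacer-fed gilts. The groups overlapped, and the change was 0.15 ± 0.23 over both (adjusted p = 0.659). Its modifier subunit GCLM, under a placeholder name, ranged over 863 to 1452 at birth, 959 to 1112 in nursed and 1124 to 1256 in replacer-fed gilts. The 2 feeding groups did not overlap for GCLM, yet the difference of -0.24 ± 0.17 (nursed minus replacer-fed) had an unadjusted p of 0.187 and an adjusted p of 1. The search by symbol and by gene number found no row named HMOX1 or GSS, so neither gene was analysed here.

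Of the glutathione S-transferases 1 of the 4 listed by symbol passed, GSTA2, an alpha-class enzyme that conjugates lipid peroxidation products. GSTA2 (chromosome 7, 133472296 to 133554381) was 52.1, 54.9, 16.2 and 18.6 at birth, 34.7, 172, 151 and 169 in nursed and 129.9, 247, 108 and 139 in replacer-fed gilts. All replacer-fed values and 3 of 4 nursed values exceeded birth, while PND2N 1 read at the newborn level. GSTA2 had the largest called change of the 26 genes: it rose 4.72-fold in replacer-fed gilts (2.24 ± 0.58, adjusted p = 0.0272) and 4.09-fold over both groups (2.03 ± 0.50, adjusted p = 0.0209). In nursed gilts the change was 1.83 ± 0.58 (adjusted p = 0.0935). The replacer call did not hold without PND0 3, PND0 4, PND2R 2 or PND2R 3 (change 1.95 to 2.39, adjusted p 0.065 to 0.0869), nor the pooled call without PND0 3 or PND0 4 (change 1.74 to 1.80, adjusted p 0.0656 to 0.073).

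GSTT1 (chromosome 14, 53913453 to 53919671), a theta-class enzyme, was 1347, 1709, 1126 and 899 at birth, 1815, 1575, 1625 and 2218 in nursed and 1515, 1664, 1626 and 1612 in replacer-fed gilts. The groups overlapped through PND0 2, and the change was 0.46 ± 0.17 over both (adjusted p = 0.0735). GSTO1, an omega-class enzyme, lay between 21.6 and 64.9 and changed by 0.33 ± 0.29 (adjusted p = 0.414). Its chromosome 14 neighbour GSTO2 stayed between 1 and 9.31. GSTM3, a mu-class enzyme under a placeholder name, was 1772, 2945, 3034 and 1996 at birth, 6505, 2913, 4021 and 5378 in nursed and 3529, 4886, 5027 and 3684 in replacer-fed gilts. Its replacer-fed values lay above birth and PND2N 2 overlapped it, and it rose by 0.88 ± 0.23 over both groups (adjusted p = 0.0242), but not without PND0 1, PND0 4 or PND2N 4 (change 0.74 to 0.84, adjusted p 0.0501 to 0.0819). GSTA4, which acts on the lipid aldehyde hydroxynonenal, changed by 0.56 ± 0.21 (adjusted p = 0.0839). GSTCD, a protein with a transferase-like domain, was 106, 108, 128 and 87.4 at birth, 22.8, 89.1, 118 and 53.4 in nursed and 78.6, 13.3, 18.8 and 80.2 in replacer-fed gilts. Its replacer-fed values all lay below birth, but the change of -1.54 ± 0.63 there (adjusted p = 0.103) and of -1.18 ± 0.55 over both groups (adjusted p = 0.136) did not pass. GSTZ1, a zeta-class enzyme of tyrosine breakdown, changed by -0.35 ± 0.28 (adjusted p = 0.371) and the kappa-class GSTK1 by 0.15 ± 0.21 (adjusted p = 0.613).

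Of the regulatory pair, the inhibitor KEAP1 rose and the transcript of NRF2 did not pass. NFE2L2 (chromosome 15, 88792258 to 88796558) was 2767, 2533, 2636 and 2812 at birth, 2374, 2677, 2725 and 2873 in nursed and 2888, 2285, 2286 and 2654 in replacer-fed gilts, with overlap throughout and a change of -0.05 ± 0.11 over both groups (adjusted p = 0.731). KEAP1 (chromosome 2, 62705845 to 62714414), which marks NRF2 for degradation, was 4143, 4059, 3017 and 3441 at birth, 5992, 4488, 4369.9 and 5165 in nursed and 4392, 5917, 6301 and 4664 in replacer-fed gilts. All 8 day 2 values lay above all 4 newborn values. KEAP1 rose by 0.49 ± 0.14 over both groups (adjusted p = 0.0378), and its separate changes of 0.45 ± 0.17 and 0.53 ± 0.17 had adjusted p = 0.136 and 0.0508. The pooled call did not hold without PND0 3, PND0 4, PND2N 1, PND2N 4, PND2R 2 or PND2R 3 (change 0.40 to 0.48, adjusted p 0.0548 to 0.111).

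NQO1 (chromosome 6, 14966512 to 14976472), a quinone reductase that is a classical NRF2 target, was 2208, 2374, 3831 and 4038 at birth, 4119.9, 2966, 2075 and 3624 in nursed and 3128, 3784, 4038 and 3205 in replacer-fed gilts. Newborn values spanned nearly the whole range, with PND0 3 and PND0 4 high, and the change was 0.14 ± 0.22 over both groups (adjusted p = 0.659). HMOX2, the constitutive heme oxygenase listed under the older symbol HO2, changed by 0.18 ± 0.25 (adjusted p = 0.63). SRXN1, the sulfiredoxin that repairs overoxidized peroxiredoxins, was at the floor of 1 in all 12 libraries of the row given that name. In all, 6 of the 19 tested placeholder rows rose over both groups (GSTM3, PRDX1, PRDX2, TXNDC9, TXNDC12 and TXNDC17) and 0 fell, against the same 9.57% of all genes rising. Without the 3 libraries of high DES, 2 of the 19 passed (TXNDC9 and TXNDC17), and GSTM3 changed by 0.68 (adjusted p = 0.0854), PRDX1 by 0.60 (adjusted p = 0.0569), PRDX2 by 0.52 (adjusted p = 0.151) and TXNDC12 by 0.33 (adjusted p = 0.0982). Without PND0 3 and PND0 4 none of these 6 calls held, and the 1 of 19 that passed was GSTA4 at 0.90 (adjusted p = 0.0414). The 6 changes were then 0.93 (adjusted p = 0.0833) for GSTM3, 0.69 (adjusted p = 0.135) for PRDX1, 0.28 (adjusted p = 0.407) for PRDX2, 0.36 (adjusted p = 0.128) for TXNDC9, 0.42 (adjusted p = 0.124) for TXNDC12 and 0.78 (adjusted p = 0.0894) for TXNDC17. In replacer-fed gilts 4 of the 19 passed, and 0 did under either omission. Of all genes 2531 passed there with 12 libraries, 254 without the 3 libraries of high DES and 1205 without PND0 3 and PND0 4. Over both groups the counts for all genes were 3046, 1418 and 1446 in that order.

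Between nursed and replacer-fed gilts 0 of the 26 genes passed by limma, where 0.0119% of all genes did, and 2 of 26 (CAT and TXNIP) had an unadjusted p under 0.05 against 2.68% of all genes. The median difference over the 26 was 0.02, with 13 above 0. For TXN the difference was -0.22 ± 0.20, for GSR -0.41 ± 0.38, for GPX4 -0.20 ± 0.30 and for GSTA2 -0.41 ± 0.58 (nursed minus replacer-fed, ± SE). The genes that passed in replacer-fed gilts alone are therefore not shown to differ between the feeding groups. CAT was the gene of the 26 whose feeding groups did not overlap, with nursed higher, where 2.55% of all genes separated in either direction and 1.39% with nursed higher.

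**Figure D4:**
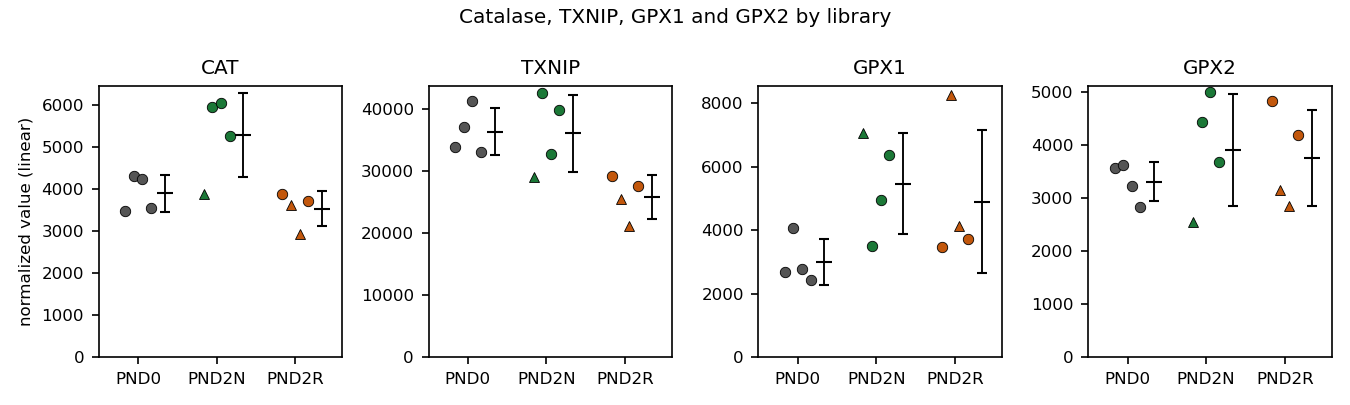
Normalized values (linear scale from 0, vertical axis) of CAT, TXNIP, GPX1 and GPX2 by group on the horizontal axis, 1 point a library, with triangles for PND2N 1, PND2R 2 and PND2R 3 and bars for the mean ± SD of 4. The nursed CAT values of 3889 to 6034 lie above the replacer-fed values of 2929 to 3884.

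Several of these genes were highest in the 3 libraries of high DES. PND2N 1, PND2R 2 and PND2R 3 were the 3 highest of the 12 libraries for 7 of the 26 genes (GPX4, KEAP1, PRDX4, PRDX5, SOD1, TXN and TXNL4A), against 15.8% of all genes tested, and the 3 lowest for 2 of 26 (NFE2L2 and TXNRD1), against 21.2% of all. Without those 3 libraries, TXN changed by 0.77 (adjusted p = 0.0272) and GSTA2 by 2.24 (adjusted p = 0.0159) over both day 2 groups, so 2 of the 7 calls held. GSR changed by 1.02 (adjusted p = 0.0853), GPX4 by 0.62 (adjusted p = 0.0855), TXNL4A by 0.53 (adjusted p = 0.074), KEAP1 by 0.34 (adjusted p = 0.135) and SOD1 by 0.41 (adjusted p = 0.148). With 9 libraries left, 1418 of all genes passed in place of 3046. In replacer-fed gilts, then 2 libraries, 0 of the 26 passed, where 254 of all genes did in place of 2531. TXN changed there by 0.90 (adjusted p = 0.0675). The part of smooth muscle content in these changes was not tested. Nor was that of the higher column totals, higher floor shares and lower stroma sums of these libraries.

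The calls were also lost without the newborn libraries of low keratin, a fit that keeps only PND0 1 and PND0 2 at birth. The matching fit without PND0 1 and PND0 2 was not run, so the losses cannot be assigned to low keratin. Without PND0 3 and PND0 4 the pooled changes were 0.72 (adjusted p = 0.0636) for TXN, 1.63 (adjusted p = 0.0519) for GSR, 1.25 (adjusted p = 0.196) for GSTA2, 0.63 (adjusted p = 0.254) for GPX4 and 0.71 (adjusted p = 0.213) for TXNL4A. KEAP1 changed by 0.32 (adjusted p = 0.252) and SOD1 by 0.37 (adjusted p = 0.285). GSR was thus larger and the other 6 smaller, 0 of the 26 passed, and 1446 of all genes did. The summed epithelial list (8 of 10 genes in the table, 0 of 8 called) reached 96044 in PND0 1 and 101731 in PND0 2 but only 27588 in PND0 3 and 21378 in PND0 4, and its part was not tested. In the macrophage and neutrophil list 5 of 11 genes rose over both groups, against 9.57% of all genes, with sums of 3880 to 7961 at birth, 7916 to 10181 in nursed and 7134 to 11084 in replacer-fed gilts, and its part in the antioxidant changes was not tested either.

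**Figure D5:**
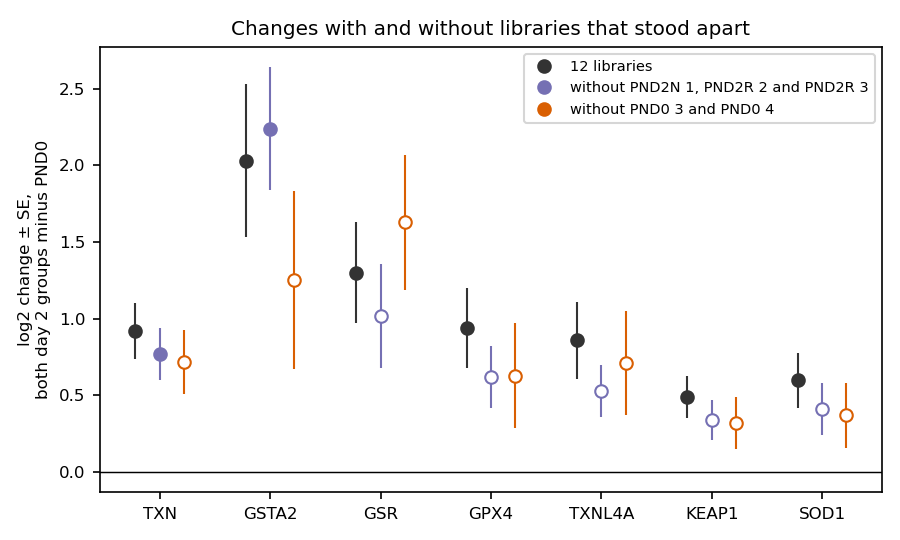
Change over both day 2 groups of the 7 genes that rose, as log2 difference ± SE on the vertical axis, with 12 libraries (black), without the 3 libraries of high DES (violet) and without PND0 3 and PND0 4 (orange). Every change stays above 0, and filled points, past an adjusted p of 0.05, remain for TXN and GSTA2 in violet and for none in orange.

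The count of 7 rising genes changed when 1 library was left out. It became 4 without PND0 1, 2 without PND0 3, 1 without PND0 4, and 3 without PND2N 4, PND2R 2 or PND2R 3. Over all genes the 3046 calls became 1991, 1561 and 1032 without PND0 1, PND0 3 and PND0 4. Without PND2N 4, PND2R 2 and PND2R 3 they became 1643, 1752 and 1811. The count of 6 in replacer-fed gilts became 2 without PND0 1 or PND0 3, 1 without PND0 4, PND2R 2 or PND2R 3, and 3 without PND2N 4 or PND2R 4. Over all genes the 2531 calls there became 1645, 1358 and 871 without PND0 1, PND0 3 and PND0 4. Without PND2R 2, PND2R 3, PND2N 4 and PND2R 4 they became 549, 571, 1795 and 1926. TXN was called in each of these fits, and of the fits without 1 library TXN (0.91, adjusted p = 0.0427) and GSR passed in nursed gilts only in that without PND2N 3.

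Genes that work with these enzymes were followed in lists chosen by name, where 9.57% of all genes rose and 8.49% fell over both day 2 groups. Of the NADPH suppliers, 1 of 9 rose and 0 fell, with a median change of 0.35. The riser was TKT, a transketolase of the pentose phosphate pathway, at 5603 ± 548 (SD, n = 4) at birth, 8167 ± 1511 in nursed and 8716 ± 1523 in replacer-fed gilts (0.58 ± 0.14, adjusted p = 0.0207), a call lost without PND0 3 or PND0 4 (change 0.52 to 0.58, adjusted p 0.0501 to 0.0704). In glutathione turnover and glutaredoxins, 3 of 15 rose and 2 fell. GLRX2, a mitochondrial glutaredoxin, rose by 0.82 ± 0.21 (adjusted p = 0.0219), but not without PND0 3 or PND0 4 (change 0.72 to 0.81, adjusted p 0.0545 to 0.0751). OPLAH, which returns oxoproline to glutamate in glutathione breakdown, fell from 308 ± 68.7 to 95.8 ± 59.3 and 75.1 ± 46.0 (-2.05 ± 0.47, adjusted p = 0.0163), but not without PND0 4 (change -1.99, adjusted p 0.0541).

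Of the methionine sulfoxide reductases, sestrins and small selenoproteins, 4 of 9 rose and 1 fell, with a median of 0.25. SESN2, a stress-induced sestrin, rose from 122 ± 32.4 at birth to 227 ± 18.0 in nursed and 316 ± 100.3 in replacer-fed gilts (1.15 ± 0.25, adjusted p = 0.0138), and kept its call in all 12 fits without 1 library, but not without PND0 3 and PND0 4 together (0.88, adjusted p = 0.0758). In a list of microsomal glutathione transferases, related enzymes and CLIC proteins, 2 of 8 rose and 1 fell. CLIC2, a chloride channel protein with a glutathione transferase fold, rose by 0.77 ± 0.18 (adjusted p = 0.018) and kept its call in all 12. CLIC4, of the same family, fell from 15921 ± 4922 at birth to 11449 ± 1985 in nursed and 8025.5 ± 1186 in replacer-fed gilts. The change was -0.70 ± 0.19 (adjusted p = 0.0267). That call was lost without PND0 3, PND0 4, PND2N 4, PND2R 2 or PND2R 3 (change -0.69 to -0.52, adjusted p 0.0503 to 0.0861).

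Among the NRF2 partners and further targets 0 of 14 rose and 2 fell, with a median of -0.34. MAFF, a small MAF protein that pairs with NRF2 on DNA, fell from 1439.5 ± 447 at birth to 351 ± 126 in nursed and 327 ± 30.7 in replacer-fed gilts (-2.06 ± 0.26, adjusted p = 0.00225), and kept its call in all 12 fits. ABCC1, an exporter of glutathione conjugates, fell (log2 change -2.06 ± 0.58, adjusted p = 0.0317), but not without PND0 1, PND0 2, PND0 3, PND0 4, PND2N 4, PND2R 2 or PND2R 3 (change -2.19 to -1.86, adjusted p 0.0549 to 0.0823). BACH1, a repressor of NRF2 targets, changed by -2.37 ± 0.86 (adjusted p = 0.0732).

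In heme and iron handling 1 of 11 rose and 1 fell. HPX, hemopexin, the plasma protein that binds free heme, fell from 171 ± 133 to 35.9 ± 11.5 and 40.5 ± 7.73 (-1.88 ± 0.42, adjusted p = 0.0147) and kept its call in all 12 fits without 1 library, but not without PND0 3 and PND0 4 together (-1.15, adjusted p = 0.0986). BLVRB, a biliverdin reductase, rose by 1.09 ± 0.31 (adjusted p = 0.0349), but not without PND0 1, PND0 3, PND0 4, PND2N 4, PND2R 2 or PND2R 3 (change 0.93 to 1.16, adjusted p 0.0568 to 0.114). Of 6 genes of selenoprotein synthesis and 11 oxidases that make superoxide or hydrogen peroxide, 0 rose and 0 fell by limma.

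Of the list genes named as risen or fallen, MAFF and CLIC2 kept their calls without the 3 libraries of high DES and also without PND0 3 and PND0 4. Without PND0 3 and PND0 4 the calls of TKT, GLRX2, OPLAH, CLIC4, SESN2, ABCC1, HPX and BLVRB were lost (adjusted p 0.0649 to 0.261). Without the 3 libraries of high DES those of TKT, GLRX2, CLIC4 and BLVRB were lost (adjusted p 0.0611 to 0.103). OPLAH and ABCC1 passed there with smaller changes of -1.44 and -1.23.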

How the data were processed

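RNA from 12 uteri (4 gilts in each of 3 groups) was sequenced after mRNA library preparation, per the labels' protocols. The submitters' processing notes name bcl2fastq and the genome build Sscrofa10.2, in which the coordinates are given. How reads were aligned, counted and normalized is not given in the sources used here. The authors deposited 1 table of normalized signal (linear, lowest value 1) with a column for each library. Low values were whole multiples of a common step for only 42.9% to 60.0% of genes per library (within 0.02 steps), so reads were not recovered and the depth is unknown.

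Of the table's 20390 rows 13716 have placeholder symbols, and 6403 of these were named by gene number through the RefSeq gene table of Sscrofa11.1 (14468 rows matched in all). Values were taken to log2(value + 1), and genes above 1 in at least 4 of 12 libraries (16862) were fitted with limma 3.58.1 in R 4.3.3, with trended and robust empirical Bayes, all 3 groups in 1 fit and Benjamini-Hochberg adjustment over all genes tested (two-sided, threshold 0.05). The contrasts were PND2N minus PND0, PND2R minus PND0, the mean of both day 2 groups minus PND0, and PND2N minus PND2R. The script was tested on simulated data. Alternatives were other added values (0.1 and 5), no filter or a filter at 10, TMM or quantile scaling, plain empirical Bayes, library quality weights, only the groups compared, leaving out each library, and leaving out the libraries that stood apart.

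The genes and lists were chosen with earlier results of these data known. Values by library are given for genes past the threshold in a contrast, for further members by smallest p over the 3 groups up to 12, and for genes with fixed roles, and for each pathway list up to 3 genes of smallest p. Replicate numbers were given in accession order and pair nothing. Gene copies and neighbouring rows with like descriptions may share reads. No sequences were used here.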

Additional observations from a re-analysis of the deposited data

Results flagged for a closer look

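Within groups of 4, the gap of the extreme library to the next, divided by the group's range, was compared with Dixon's critical value, a test that flags about 1 in 20 groups by chance. Of 78 groups screened (26 genes in 3 groups) 6 exceeded it. GPX6 was 270.1 in PND2N 2 against 3.53 to 14.5 in the other nursed libraries, and 324.4 in PND2R 3 against 1.91 to 19.5 in the other replacer-fed libraries. GSTA2 was 34.7 in PND2N 1 against 151.0 to 171.6 in the other nursed libraries. GPX1 was 8233 in PND2R 2 against 3461 to 4129 in the other replacer-fed libraries. GSTO2 was 4.91 in PND0 4 against 1 to 1.22 in the other newborn libraries and 4.43 in PND2R 2 against 1 in each of the other replacer-fed libraries, all near the floor. PND2N 1 and PND2R 2 are also among the 3 libraries of high DES.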

How the results depend on the processing

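Of 674 alternative values for single genes, 491 kept their direction and side of the threshold, 178 kept the direction but no longer passed, 5 newly passed and 0 reversed. In replacer-fed gilts against birth 6 of the 26 genes passed. The count was 2 with no filter, 3 with plain empirical Bayes, 0 without the 3 libraries of high DES and 0 without the 2 newborn libraries of low keratin. It was 1 to 9 when 1 library was left out. Over all genes 2531 passed, and 2062, 2387, 254 and 1205 under these 4 settings in that order. With 1 library left out 549 to 4101 of all genes passed. For both day 2 groups against birth 7 passed. The count was 4 with no filter, 3 with library quality weights, 2 without the libraries of high DES and 0 without the newborn libraries of low keratin. It was 1 to 8 when 1 library was left out. Over all genes 3046 passed, and 2472, 2172, 1418 and 1446 under these 4 settings in that order. With 1 library left out 1032 to 3834 of all genes passed. In nursed gilts against birth 0 passed. The count was 1 with quantile normalization (GSTA2), 2 with library quality weights (CAT and GSTA2) and 1 without the libraries of high DES (GSTA2). It was 0 to 2 when 1 library was left out. Over all genes 560 passed, and 581, 753 and 275 under these 3 settings in that order. With 1 library left out 26 to 645 of all genes passed. In replacer-fed gilts the count hides exchanges: TXNIP no longer passed with TMM scaling (6 genes) or quantile normalization (7 genes), where KEAP1, and with quantile normalization also SOD1, passed in addition. Between feeding groups it was 0 under every alternative run. Fewer libraries leave fewer degrees of freedom; otherwise the cause was not tested. Fitting only the groups compared gave no separate value for both day 2 groups, which need all 12 libraries. In nursed gilts against birth it left 7 of all genes called in place of 560, and in replacer-fed gilts 2652 in place of 2531. No paired analysis was possible because the labels number no replicates. With 4 animals a group and unknown depth, a gene that missed the threshold is not shown to be unchanged, and values near the floor of 1 (GPX6, GSTO2, TXNRD1) are imprecise.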

Other observations

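Rows described like some of these enzymes lie near them on Sscrofa10.2, and how reads were divided between such neighbours is not known. A catalase-like row begins 52265 bases from CAT. It was 1006, 1109.5, 1169.8 and 931 at birth, 140.0, 1126, 1320.5 and 597 in nursed and 625, 157, 113 and 585 in replacer-fed gilts, lowest in PND2N 1, PND2R 2 and PND2R 3, and changed by -1.35 ± 0.61 over both groups (adjusted p = 0.125 by limma). A GSTT1-like row 1259 bases from GSTT1 was 229.8, 201, 447 and 442 at birth, 1227, 509, 275 and 593 in nursed and 402, 916, 1073 and 540.3 in replacer-fed gilts, highest in the same 3 libraries, and changed by 1.00 ± 0.40 (adjusted p = 0.096). A thioredoxin-like row beside TXN was 390.0, 447, 375 and 290.4 at birth, 580.3, 426, 429 and 502 in nursed and 433, 477, 507 and 404 in replacer-fed gilts. It changed by 0.33 ± 0.17 (adjusted p = 0.177), and its correlation with TXN over the 12 libraries was 0.87 on the log2 scale. A GSR-like row 130432 bases from GSR was 125.5, 152.8, 82.54 and 79.93 at birth. It was 30.24, 93.12, 154.4 and 87.73 in nursed and 133.7, 13.28, 27.49 and 76.65 in replacer-fed gilts. It changed by -0.83 ± 0.58 (adjusted p = 0.305), and its correlation with GSR over the 12 libraries was -0.74 on the log2 scale. Rows described like NFE2L2 changed by 1.19 ± 0.84 (adjusted p = 0.308) and -0.67 ± 0.44 (adjusted p = 0.27).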
